A study of Homo sapiens with 2 samples.

Results

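DNA methylation in mammals is set by writers, removed by erasers and read by methyl-CpG binding proteins. DNMT3A and DNMT3B place methyl groups on unmethylated CpG sites, DNMT1 copies the pattern onto the new strand after replication, and UHRF1 brings DNMT1 to half-methylated DNA. TET1, TET2 and TET3 oxidise 5-methylcytosine, the base excision glycosylase TDG removes the oxidised products, and MBD2 binds methylated CpG and recruits the NuRD histone deacetylase complex. In cancer cells, promoter methylation is one of the ways in which germline genes such as the cancer-testis antigens are kept silent.

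These 9 genes were chosen by symbol, and each symbol matched 1 of the 58174 genes listed in the deposited data. The data comprised 2 RNA-seq libraries of PLC-8024, a human hepatocellular carcinoma (HCC) cell line. PLC-8024-CTR cells (control cells below) carried the control vector. PLC-8024-GDF1 cells (GDF1 cells below) stably overexpressed human GDF1, a secreted ligand of the TGF-β superfamily, after lentiviral transduction. The study's methods describe puromycin selection of the transduced cells and no number of clones is given in the sources used here. The comparison bears on which epigenetic regulators differ in cells with GDF1, a question that the study raised for cancer-testis antigen expression.

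Values are TPM, transcript abundance on a common scale, which is scaled by transcript length, so that levels of different genes can be compared. TPM keeps no sequencing depth, and no counting error can be given. Each condition has 1 library, so differences describe these libraries only and carry no error or p-value. A change is log2((TPM + 1)/(TPM + 1)) of GDF1 cells over control cells, the pseudocount of 1 making the change of low genes smaller. A gene is said to have risen or fallen only where this change passed 1 or -1, that is 2-fold. The introduced gene was seen mainly as CERS1, the gene whose exons hold the GDF1 coding sequence, at 13.3 TPM in control cells and 9612 TPM in GDF1 cells. GDF1 itself was listed at 2.10 and 4.64 TPM. Of 11 hepatocyte and liver tumour markers, all had at least 1 TPM in control cells and 10 did in GDF1 cells, where TTR was listed at 0.34 TPM against 7.17 TPM in control cells. SERPINA1, a secreted protease inhibitor, was the highest of them at 5308 and 2915 TPM. Of the 11, 6 (54.5%) fell, TTR, APOA1, AFP, ALB and APOC3 by the most, and none rose. For comparison, 9.61% fell and 4.82% rose among the 14929 genes that reached 1 TPM in one or both libraries. The study counts AFP, here at 31.4 and 9.75 TPM, among liver progenitor markers. By qPCR in PLC-8024 and Huh7 it reports the opposite direction, an induction of these markers by GDF1. The single libraries here carry no error and cannot be weighed against that. The keratins KRT8 (1424 and 1777 TPM) and KRT18 (1005 and 1224 TPM) were higher in GDF1 cells, within 2-fold. Of 11 leukocyte, endothelial and stromal markers, 4 had at least 1 TPM, and the summed level of all 11 was 358.0 TPM in control cells and 251.2 TPM in GDF1 cells. LYZ was the highest (298 and 214 TPM), and CD68 fell. The endothelial PECAM1 (23.2 and 22.2 TPM) and the stromal COL3A1 (3.22 and 1.23 TPM) also reached 1 TPM and stayed within 2-fold with the pseudocount. PTPRC, VWF, DCN and ACTA2 were listed at 0.0001 TPM, the value given in place of 0, in both. The part of these marker levels in the values below was not tested.

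Among the 9 genes, TDG rose and UHRF1 fell, and the other 7 stayed within 2-fold. Of these 7, each had a lower TPM in GDF1 cells than in control cells. A level of 1 TPM or more in at least one library was reached by 7 of the 9 genes, with TET1 and TET2 below it. Over all 14929 genes that reached it, 14.4% passed 2-fold, 4.82% upwards and 9.61% downwards, and the median change was -0.20. The single riser and the single faller among the 7 genes that reached 1 TPM are too few to read against these shares. The median change was -0.77 over those 7 genes and -0.29 over all 9. A negative change was seen in 6 of the 7 genes that reached 1 TPM and in 9443 of all 14929.

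The start regions of the 4 genes with the largest changes are shown, because CpG sites in such regions are the substrate on which these proteins act. Each is the 250 bases before the first transcription start listed by RefSeq on GRCh38.p14, 5′ to 3′ on the strand of the gene, with every CpG in capitals. TDG lies at chr12:103965622-103965871 (plus strand), UHRF1 at chr19:4909251-4909500 (plus strand), MBD2 at chr18:54224670-54224919 (minus strand) and DNMT1 at chr19:10194954-10195203 (minus strand).
TDG: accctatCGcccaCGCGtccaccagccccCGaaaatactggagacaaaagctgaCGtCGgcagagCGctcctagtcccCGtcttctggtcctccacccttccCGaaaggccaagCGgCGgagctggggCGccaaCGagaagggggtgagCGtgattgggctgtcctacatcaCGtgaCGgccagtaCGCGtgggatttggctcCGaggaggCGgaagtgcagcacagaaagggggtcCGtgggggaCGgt
UHRF1: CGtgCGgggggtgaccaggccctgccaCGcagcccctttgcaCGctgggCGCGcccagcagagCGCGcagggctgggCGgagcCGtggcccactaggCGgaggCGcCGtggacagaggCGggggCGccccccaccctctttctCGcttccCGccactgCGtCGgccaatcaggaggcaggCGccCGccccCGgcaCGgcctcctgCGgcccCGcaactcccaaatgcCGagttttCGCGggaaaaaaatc
MBD2: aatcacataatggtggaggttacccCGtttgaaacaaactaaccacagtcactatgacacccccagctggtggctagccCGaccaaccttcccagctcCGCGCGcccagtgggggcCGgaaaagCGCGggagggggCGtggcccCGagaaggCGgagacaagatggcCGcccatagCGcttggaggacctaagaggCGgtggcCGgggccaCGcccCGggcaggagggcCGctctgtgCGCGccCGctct
DNMT1: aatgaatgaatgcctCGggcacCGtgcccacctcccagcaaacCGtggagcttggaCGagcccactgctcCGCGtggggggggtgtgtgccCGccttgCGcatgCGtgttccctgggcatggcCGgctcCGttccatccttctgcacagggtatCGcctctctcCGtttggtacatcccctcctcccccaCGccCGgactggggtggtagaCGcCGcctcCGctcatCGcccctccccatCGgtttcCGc

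The writers were the most abundant group, and DNMT1 was the highest of the 9 genes in both libraries. DNMT1 (ENSG00000130816) was listed at 32.0 TPM in control cells and 16.4 TPM in GDF1 cells, a change of -0.92. In control cells it stood above 75.7% of the genes with at least 1 TPM, and in GDF1 cells above 64.6% of them. Its span on the minus strand of chromosome 19 (GRCh37, 10244018 to 10341962) overlaps S1PR2 on the same strand, a sphingosine phosphate receptor gene with 5.18 and 5.96 TPM, so the lower DNMT1 value was not shared by that gene.

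The de novo writers had lower levels than DNMT1 and differed from each other in the size of the change. DNMT3B (ENSG00000088305; GRCh37 chromosome 20, 31350191 to 31397165, plus strand) was listed at 8.02 TPM in control cells and 4.29 TPM in GDF1 cells, a change of -0.77. DNMT3A (ENSG00000119772; chromosome 2, 25450724 to 25565459, minus strand) was listed at 5.10 and 3.99 TPM, a change of -0.29, which is close to the median of all genes. The TPM ratio of DNMT3B to DNMT3A was 1.57 in control cells and 1.08 in GDF1 cells. DNMT3L, a partner of the de novo writers that has no catalytic activity, was listed at 0.0001 TPM in both libraries.

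Added up, the 3 DNMT genes gave 45.1 TPM in control cells and 24.7 TPM in GDF1 cells, a change of -0.84. DNMT1 made up 70.9% of this sum in control cells and 66.5% in GDF1 cells. DNMT3A made up 11.3% and 16.2%, and DNMT3B 17.8% and 17.4%. The composition thus moved towards DNMT3A by a few percentage points while the sum was lower.

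UHRF1, which couples methylation to DNA replication, had the largest decrease of the 9 genes. UHRF1 (ENSG00000276043; GRCh37 chromosome 19, 4903092 to 4962165, plus strand) was listed at 8.20 TPM in control cells and 2.66 TPM in GDF1 cells, a change of -1.33. Of the 14929 genes, 670 had a larger decrease. By level, UHRF1 ranked 3 of the 9 genes in control cells and 6 in GDF1 cells. The TPM ratio of DNMT1 to UHRF1 was 3.90 in control cells and 6.18 in GDF1 cells, so UHRF1 was lower even relative to DNMT1. Reads of UHRF1 could be shared with ENSG00000256663, since 18.4% of the 100-base windows of its longest transcript also occurred there, and that gene was listed at 0.90 TPM in control cells and 0.043 TPM in GDF1 cells.

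**Figure D1:**
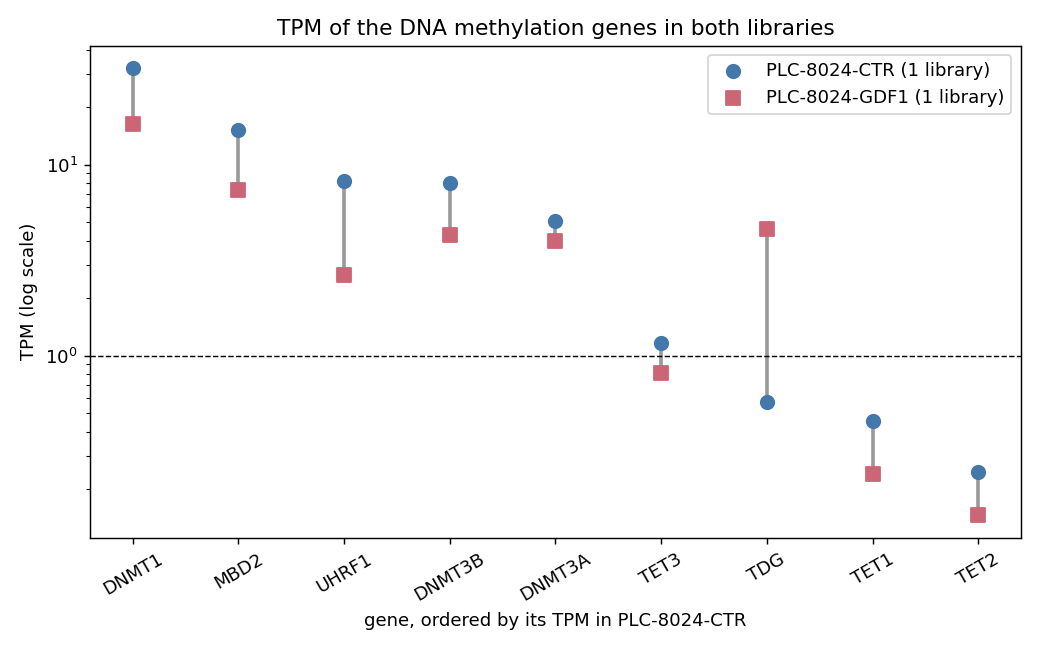
TPM (log scale) of the 9 genes in the single control library (circles) and the single GDF1 library (squares), joined by a line, with a dashed line at 1 TPM. All squares lie below their circles except that of TDG, which moves from 0.57 to 4.60 TPM.

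DNMT1 and UHRF1 are known to be expressed with the genes of DNA synthesis, and a list of 35 S-phase genes was therefore set beside them. Of the 34 with at least 1 TPM, 6 (17.6%) fell and none rose, against 9.61% and 4.82% of all genes, with a median change of -0.39 against -0.20. The change was negative in 26 of the 34, against 9443 of all 14929 genes, and in 25 it was below the median of all genes. RRM2, a subunit of ribonucleotide reductase, fell from 13.5 to 3.43 TPM, and TYMS, thymidylate synthase, from 69.5 to 28.8 TPM. MCM4 (25.1 and 11.0 TPM) and MCM2 (18.8 and 8.30 TPM), both subunits of the replicative helicase, also fell, as did MCM10 and RFC2. MCM7, the most abundant gene of the list, was listed at 162 and 167 TPM. In bulk RNA a smaller share of cells in S phase and less RNA per cell cannot be told apart, and the part of either in the DNMT1 and UHRF1 values was not tested.

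The erasers were listed at very low levels in both libraries. TET3 (ENSG00000187605; GRCh37 chromosome 2, 74212037 to 74335303, plus strand) was listed at 1.17 TPM in control cells and 0.81 TPM in GDF1 cells, a change of -0.26. TET1 (ENSG00000138336; chromosome 10, 70320094 to 70454244, plus strand) was listed at 0.46 and 0.24 TPM. TET2 (ENSG00000168769; chromosome 4, 106067032 to 106200973, plus strand) was listed at 0.25 and 0.15 TPM. TET3 made up 62.5% of the summed TET level in control cells and 67.7% in GDF1 cells.

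The sum of the 3 TET genes was 1.87 TPM in control cells and 1.19 TPM in GDF1 cells, a change of -0.39. The DNMT sum was 24.1 times the TET sum in control cells and 20.7 times in GDF1 cells. Writers therefore outweighed TET erasers by a similar factor in both libraries. The read numbers behind such low TPM values are unknown. The plain TPM ratios of TET1, TET2 and TET3 were 0.53, 0.59 and 0.69. After subtraction of a trend with GC content, the changes of TET1 and TET2 took the opposite sign, at 0.14 and 0.23.

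TDG, the glycosylase that acts after the TET enzymes, was the one gene of the 9 with a higher value in GDF1 cells. TDG (ENSG00000139372; GRCh37 chromosome 12, 104359600 to 104382652, plus strand) was listed at 0.57 TPM in control cells and 4.60 TPM in GDF1 cells. The change was 1.83, and the plain TPM ratio was 8.04. Of the 14929 genes, 130 had a larger increase. By level, TDG ranked 7 of the 9 genes in control cells and 3 in GDF1 cells, above DNMT3A and DNMT3B. In control cells the DNMT1 level was 56.0 times that of TDG, and in GDF1 cells 3.57 times.

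Some measurements bear on how TDG was quantified. Its longest transcript had a GC content of 39.0%, within the lowest of 5 equal groups of genes by GC content, in which 2.12% of 2928 genes rose and 12.9% fell. Among the 3013 genes with a mean of 2 to 5 TPM, as TDG had, 5.44% rose. Of its 100-base windows, 6.87% also occurred in another gene, either TDGP1 or ENSG00000288744. TDGP1, a processed pseudogene, was listed at 0.0001 TPM in both libraries. ENSG00000288744, an overlapping non-coding gene on the same strand, is not among the genes listed in the deposited data. The control value is below 1 TPM, and the read number behind it is unknown.

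MBD2, the reader, ranked 2 by level in both libraries. MBD2 (ENSG00000134046; GRCh37 chromosome 18, 51677976 to 51751039, minus strand) was listed at 15.2 TPM in control cells and 7.33 TPM in GDF1 cells. The change was -0.96, just within 2-fold, and 1575 of the 14929 genes had a larger decrease. Its plain TPM in control cells was 2.08 times that in GDF1 cells, so that whether it passes 2-fold depends on the pseudocount.

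**Figure D2:**
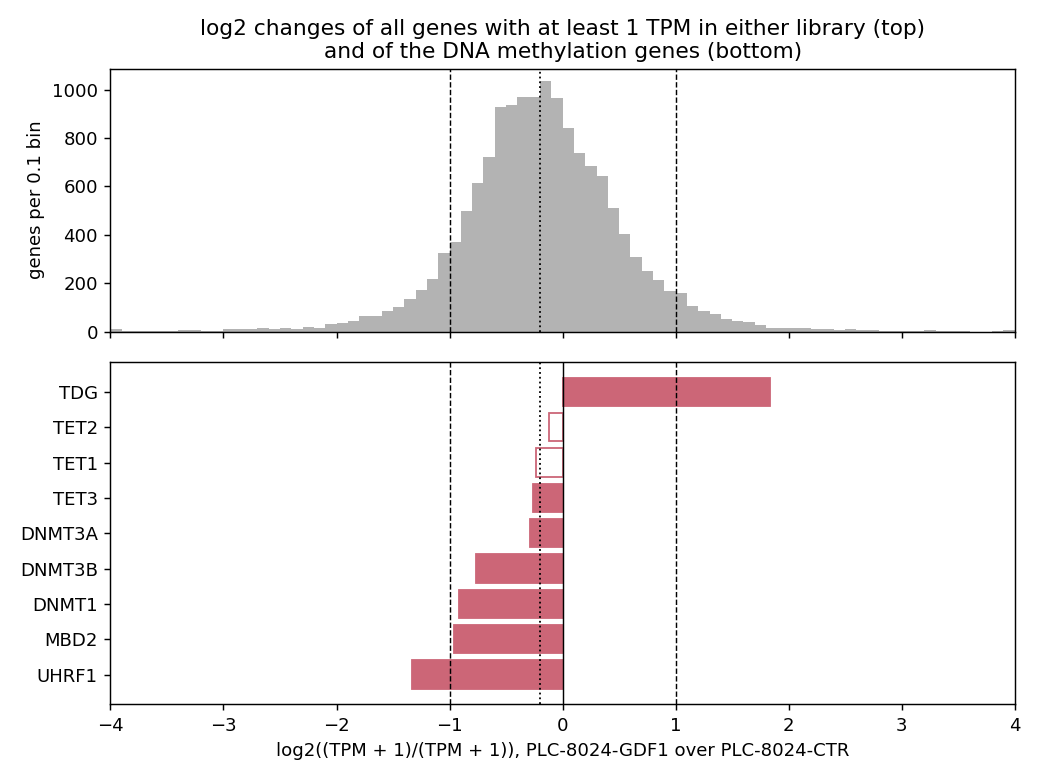
The upper panel is a histogram of the log2 changes of the 14929 genes with 1 TPM or more in either library (bins of 0.1, values beyond 4 or -4 in the end bins), and the lower panel gives the log2 change of each of the 9 genes, with open bars for TET1 and TET2, which stayed below 1 TPM. Dashed lines mark 2-fold and the dotted line marks the median of all genes, -0.20. UHRF1 (-1.33) and TDG (1.83) lie beyond the dashed lines.

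Because the median of all genes was -0.20, the changes were also read relative to it. On that scale UHRF1 was at -1.13, MBD2 at -0.76, DNMT1 at -0.72 and DNMT3B at -0.57. DNMT3A was at -0.09, TET3 at -0.06, TET1 at -0.03 and TET2 at 0.08. TDG was at 2.03. With the pseudocount of 1, 1 of the 9 genes thus lay well above the median of all genes, 4 near it and 4 below it. The pseudocount keeps the changes of the TET genes small at their low levels, so their place near the median is partly set by it. By the plain TPM ratio in log2, TET1 was at -0.92, TET2 at -0.75, TET3 at -0.53 and DNMT3A at -0.35. The median of all 14929 genes on that scale was -0.24.

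In level, the order from highest to lowest in control cells was DNMT1, MBD2, UHRF1, DNMT3B, DNMT3A, TET3, TDG, TET1 and TET2. UHRF1 and DNMT3B differed by little (8.20 and 8.02 TPM). In GDF1 cells the order was DNMT1, MBD2, TDG, DNMT3B, DNMT3A, UHRF1, TET3, TET1 and TET2. TDG (4.60 TPM), DNMT3B (4.29 TPM) and DNMT3A (3.99 TPM) lay close together there. With no replicate spread, neighbours in either order cannot be separated. The 9 genes together were listed at 71.0 TPM in control cells and 40.5 TPM in GDF1 cells.

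At the first listed start, 6 of the 9 genes held more CpG sites than the median window. Before the first listed start, the 250 bases held 22 CpG sites in TDG, 28 in UHRF1, 21 in MBD2, 21 in DNMT1, 21 in DNMT3A and 37 in TET3. TET2 held 10, TET1 9 and DNMT3B 3, against a median of 11 over 35116 windows of the same length. TDG, which rose, and UHRF1, which fell, were both among the 6. RefSeq lists several starts for DNMT3A, TET1, TET2, TET3 and UHRF1, 20 in all for the 9 genes, and these differ. The second TET2 window, for example, held 34 CpG sites. The gene spans are on GRCh37 and the starts on GRCh38, and where each listed start lies within its gene was not examined. The DNMT3B values, in particular, describe the listed window only.

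Letters of 4 factor motifs were searched on both strands of the same windows. The E2F-type letters TTTGGCGC, TTTCGCGC, TTTCCCGC and TTTGCCGC occur in 2.79% of all windows, and of the first windows of the 9 genes only that of UHRF1 held a match, TTTCCCGC read on the opposite strand, which begins 14 bases before the start and overlaps CpG sites. In the first windows, the SMAD letters CAGAC, which occur in 38.0% of all windows, were found once, before DNMT3B, and the SMAD palindrome GTCTAGAC, which occurs in 0.18%, before none of the 9. Also in the first windows, the GC box GGGCGG, which contains a CpG, occurs in 42.6% of windows and stood before UHRF1, MBD2 and TET3, and the CCAAT box CCAAT occurs in 32.0% and stood before TDG, UHRF1 and DNMT3B. Later starts differed: CAGAC stood in windows of TET1 and TET2, the GC box in windows of DNMT3A and TET2, and CCAAT in windows of TET1 and TET3. A match of letters does not show that a factor binds there.

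The partners of the 9 genes were described by 5 lists with 69 genes, of which 59 had 1 TPM or more in either library. Of the 59, 1 (1.69%) rose and 11 (18.6%) fell, against 4.82% and 9.61% of all genes, and the median change was -0.39. With TPM rescaled to a median ratio of 0, 1 rose and 8 fell, where 7.38% of all genes rose and 6.52% fell.

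Among the other methyltransferases and cofactors of methylation, none of the 8 genes with at least 1 TPM passed 2-fold, and their median change was -0.28. TRIM28, a corepressor that guides methylation to imprinted regions and retroelements, was the most abundant at 333 TPM in control cells and 316 TPM in GDF1 cells. HELLS, a chromatin remodeller needed for methylation of repeats, was listed at 3.70 and 4.72 TPM, and its activator CDCA7 at 5.05 and 2.49 TPM. Without the pseudocount CDCA7 passed 2-fold, its TPM in control cells being 2.03 times that in GDF1 cells. UHRF2, the paralog of UHRF1, was listed at 1.68 and 1.05 TPM.

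Of the other methyl-CpG readers reported here, 8 genes had at least 1 TPM, none of these 8 passed 2-fold, and their median change was -0.29. MBD5, another gene of the methyl-CpG binding domain family, was listed at 3.89 and 1.73 TPM and passed 2-fold without the pseudocount. MBD3, a relative of MBD2 in a separate form of NuRD and a protein with little affinity for methylated CpG, was the most abundant reader-like gene at 193 and 227 TPM. The TPM values of MBD2 and MBD3 therefore lay in opposite directions between the libraries, both within 2-fold.

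The NuRD partners had 12 genes with at least 1 TPM, of which 1 (8.33%) rose and 2 (16.7%) fell, against 4.82% and 9.61% of all genes. Their median change was -0.24, against -0.20 over all genes. These counts are too few to read against those shares. CHD4, the main remodelling ATPase of the complex, rose from 31.9 to 74.2 TPM (change 1.19). HDAC1, a deacetylase subunit, fell from 86.9 to 29.9 TPM (change -1.51), and CDK2AP1 fell from 11.8 to 4.84 TPM. MTA1, the most abundant, was listed at 132 and 111 TPM.

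Among TET partners and the base excision repair genes that act with TDG, 5 of 15 genes with at least 1 TPM fell and none rose, against 9.61% and 4.82% of all genes, with a median change of -0.66. APEX1, the endonuclease that cuts the abasic site left by TDG, fell from 21.4 to 7.43 TPM, and OGT, a glycosyltransferase that binds TET proteins, from 24.4 to 9.35 TPM. GADD45A, a stress protein linked to demethylation, fell from 21.7 to 6.71 TPM, and the glycosylases NEIL2 and NEIL3 also fell. SMUG1 (18.7 and 32.0 TPM) and NTHL1 (58.0 and 97.9 TPM), other base excision glycosylases, had higher values in GDF1 cells but stayed within 2-fold. GADD45B was the most abundant gene of the list in control cells, at 73.7 and 57.6 TPM.

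Methyl groups come from S-adenosylmethionine, and the TET enzymes need 2-oxoglutarate. Of 16 genes of these supplies with at least 1 TPM, 4 fell and none rose, against the same shares of all genes, with a median change of -0.60. MAT1A, the liver form of methionine adenosyltransferase, fell from 12.6 to 4.15 TPM, and MAT2B, the regulatory subunit of the other form, from 14.4 to 5.49 TPM. MTRR, which reactivates methionine synthase, fell from 7.45 to 1.40 TPM, and IDH2, a mitochondrial producer of 2-oxoglutarate, from 267.2 to 98.7 TPM. AHCY, which removes the inhibitory product of methyl transfer, was the most abundant at 322 and 235 TPM.

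**Figure D3:**
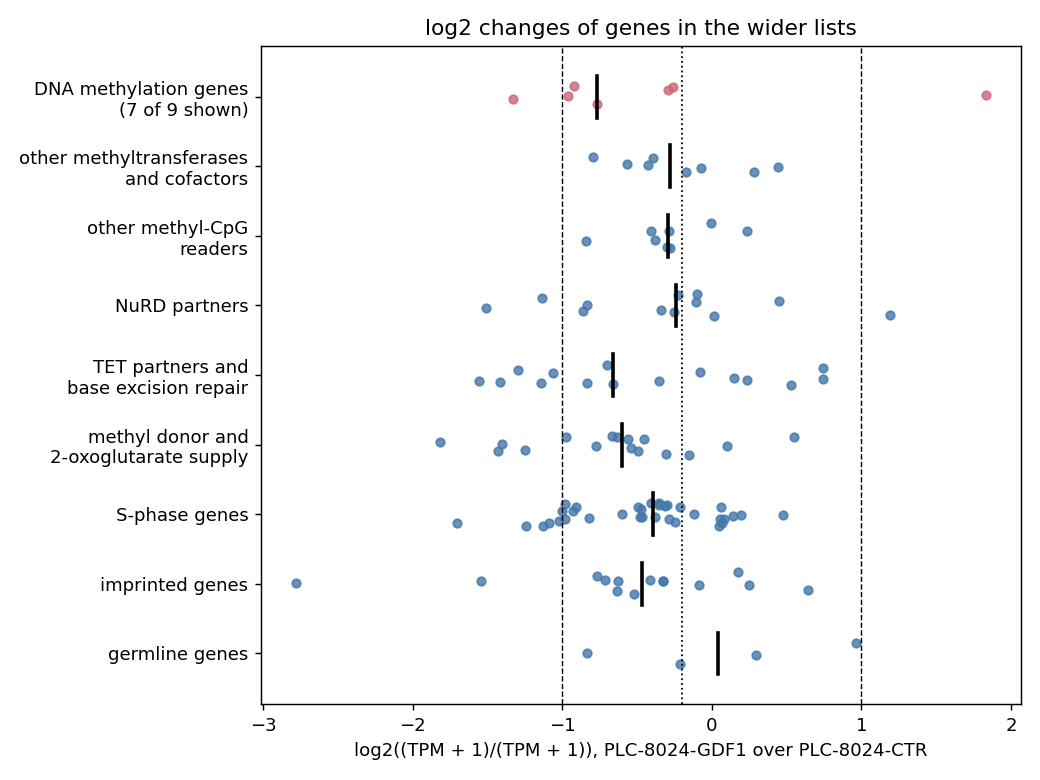
Log2 changes of single genes (points, with 1 TPM or more in either library) in the DNA methylation genes and in 8 wider lists, with a black bar at each list's median. Dashed lines mark 2-fold and the dotted line marks the median of all genes, -0.20. The medians are -0.77 for the DNA methylation genes, -0.66 for TET partners and base excision repair and 0.04 for the 4 germline genes.

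KDM1A (LSD1), the histone demethylase on which the study centred, served as a comparison from another class of epigenetic regulator. It was listed at 49.9 TPM in control cells and 45.3 TPM in GDF1 cells, a change of -0.14. This change lay above the median of all genes, -0.20. The study, by contrast, reports significantly less LSD1 RNA after GDF1, using qPCR on Huh7 as well as PLC-8024. It also reports less LSD1 protein on western blots, and describes LSD1 as the regulator with the most significant effect. The TPM values here come from 1 library per condition and carry no error, so they cannot be weighed against those measurements. With the pseudocount, 7 of the 9 genes had a more negative change than KDM1A, the exceptions being TET2 (-0.12) and TDG (1.83). KDM1A then lay between TET1 and TET2 in change. At the KDM1A level the pseudocount alters the change little, whereas it keeps that of TET2 small. The plain TPM ratio of TET2 in log2 was -0.75, so its place above KDM1A rests on the pseudocount. Of the 14929 genes, 47.9% had a more negative change than TET1 and 55.4% than TET2. The 7 include TET1, which stayed below 1 TPM, and DNMT3A and TET3, which were near the median of all genes with the pseudocount.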

How the data were processed

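A single RNA-seq sample each of control (PLC-8024-CTR) and GDF1-overexpressing (PLC-8024-GDF1) cells was used, grouped by genotype label. The authors enriched mRNA with poly-T beads, sequenced paired ends, filtered reads with Trimmomatic (version 0.36), aligned them to hg19 with HISAT2 (version 2.1.0) and deposited StringTie (version 1.3.3b) TPM values, with 0.0001 in place of 0. The annotation is RefSeq by the methods but the identifiers are Ensembl, and whether counting used strand is not given in the sources used here. TPM carries no depth.

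Log2 changes used a pseudocount of 1, list counts and medians required 1 TPM or more in either library, and 2-fold was the limit for a change. Positions, GC content of the longest transcript and 100-base windows came from GENCODE v44 on GRCh37, and the start regions from RefSeq on GRCh38.p14, which held all 9 genes. The GC trend was a lowess fit (span 0.3) over 14640 genes. The calculations used Python 3.11.15, pandas 2.3.3 and statsmodels 0.14.6, and were tested on simulated data. The genes and lists were chosen with earlier results of these data known. A gene of the reader list is not reported here and was taken out of the list counts after its values were seen, so those counts do not describe the whole list. Named from each list were its genes past 2-fold, at most 5 each way, and its most abundant gene. DNMT3L, HELLS, CDCA7, UHRF2, MBD3, MBD5, S1PR2, ENSG00000256663, TDGP1, MCM7, RFC2, SMUG1, NTHL1, SNRPN, PEG10, IGF2 and the markers or germline genes named within 2-fold were chosen after their values were seen. The alternatives changed the pseudocount, the TPM minimum, the scaling, the GC trend, same-symbol rows and the gene types.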

Additional observations from a re-analysis of the deposited data

How the results depend on the processing

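No paired analysis was possible because there is a single library on either side, which also leaves none that could be left out. Single changes were compared by sign and by the 2-fold limit, and counts by a factor of 1.5. TDG stayed above 2-fold and UHRF1 below it under each of the 6 alternatives tried for single genes. Of these, adding up same-symbol and readthrough rows found only 1 row for each gene, so it could not alter any value. MBD2 passed 2-fold when the pseudocount was 0.1 (-1.04) or absent (-1.05). With the GC trend subtracted, TET1 changed to 0.14 and TET2 to 0.23. With at least 5 TPM, 5 of the 9 genes remained under test and 1 passed 2-fold, because TDG did not reach the minimum. The share of all genes past 2-fold, 14.4% at first, was 23.3% with a pseudocount of 0.1, 24.6% with the plain ratio and 3.70% with no filter on low values. With TPM rescaled to a median ratio of 0, by a factor of 1.18 on GDF1 cells, 7.38% of all genes rose and 6.52% fell. The excess of falling over rising genes among all genes was thus turned round. Of the 7 methylation genes with at least 1 TPM, 3 passed 2-fold with a pseudocount of 0.1 or none, against 2 at first. The count for the wider lists, 12 at first, lay between 9 with rescaled TPM and 15 with the plain ratio. The median change of those 7, -0.77 at first, lay between -0.57 with rescaled TPM and -0.90 with the plain ratio. It was -0.29 over all 9 with no filter and -0.92 over the 5 with at least 5 TPM. For single genes, 50 other values kept their sign and side of the limit, including those from same-symbol rows, which could not differ. The unknown depth limits TDG in PLC-8024-CTR and the TET genes most.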

Other observations

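Genes whose expression is known to depend on DNA methylation were examined as a further group. Of 26 imprinted genes, 14 had 1 TPM or more in either library. Of these 14, 2 (14.3%) fell and none rose, against 9.61% and 4.82% of all genes. The median log2 change was -0.47, against -0.20 over all genes. The 2 genes that fell are too few to read against those shares. H19, an imprinted non-coding RNA, fell from 231.6 to 32.8 TPM (log2 change -2.78), and GNAS, the gene of a G protein subunit, fell from 584.2 to 199.8 TPM (log2 change -1.54). SNRPN was listed at 232 and 262 TPM, and PEG10 at 11.4 and 13.8 TPM. IGF2, the neighbour of H19, was listed at 0.0001 TPM in both libraries.

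Of 23 germline genes with promoters known to be silenced by methylation, 10 were listed at 0.0001 TPM in both libraries and 4 reached 1 TPM, none of which passed 2-fold with the pseudocount of 1. By the plain TPM ratio, RPL10L (higher in GDF1 cells) and SOHLH2 (lower) did pass it. Among these 4, RPL10L was listed at 2.74 TPM in control cells and 6.28 TPM in GDF1 cells, TDRKH at 4.44 and 5.68 TPM, HORMAD1 at 1.58 and 1.23 TPM, and SOHLH2 at 5.79 and 2.81 TPM. DAZL, DDX4 and MAEL, all germ cell genes, were among those listed at 0.0001 TPM in both. The rest of the list stayed below 1 TPM in both libraries. Of these, TEX101 (0.0001 and 0.62 TPM), MOV10L1 (0.038 and 0.28 TPM), TUBA3D (0.12 and 0.35 TPM) and SYCP1 (0.0001 and 0.007 TPM) had higher values in GDF1 cells. SYCE1, TEX14, TEX15, TUBA3C and STAG3 had lower values. The list holds no GAGE, MAGE or LY6 gene, families in which the study reports activation. No methylation level was measured in these data, and whether any of these values moves with DNA methylation was not tested.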
